A study of Homo sapiens with 18 samples.

Results

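Interferon response genes are the genes that cells switch on after sensing an interferon. A set of 46 of them, without genes of the major histocompatibility complex, was examined among the 61487 gene identifiers of a count table. The members were given by symbol and were in part selected on the values of the SRF-PDGFRB libraries, in which members such as CXCL9 and APOL4 had been seen raised. The SRF-PDGFRB comparisons are therefore a description for the members: no p-value is given for them, and numbers of members called there are printed beside the share of all genes with nothing read from them. Of the 46 members, 45 had enough counts to be tested. The exception, IRF8, a transcription factor known mainly from blood cells, had 0 counts in all 18 libraries, where 3 counts would be 0.101 to 0.155 CPM, that is counts divided by the library's total on the usual scale.

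The RNA came from MSC-hTERT cells, mesenchymal stem cells of human origin made immortal with hTERT, grown in a medium with 10% serum and FGF-2. Cells carried 1 of 6 constructs, with 3 libraries each: pMSCV, the name of a retroviral vector and taken here as the control, SRF, SRF-FOXO1, SRF-ICA1L, SRF-PDGFRB or SRF-RELA. SRF, serum response factor, drives muscle genes and growth factor response genes, and the 4 hyphenated names are fusions of SRF found in myoid soft tissue tumours. No interferon was named among the treatments, and the labels give no time after transduction. They also do not say whether the 3 libraries of a group came from separate cultures, so p-values measure only the spread between these libraries. All values come from 1 cell line, and from bulk RNA, in which more cells with a transcript and more transcript per cell cannot be told apart.

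Type I interferons signal through the receptor pair IFNAR1 and IFNAR2 and the kinases JAK1 and TYK2 to a complex of phosphorylated STAT proteins with IRF9, which binds the interferon-stimulated response element (ISRE) upstream of antiviral genes such as IFIT1, MX1 and OAS2. Interferon gamma signals through IFNGR1 and IFNGR2 to a STAT dimer that binds the gamma-activated site (GAS), and its best known targets include IRF1, the guanylate-binding proteins, IDO1 and the chemokines CXCL9, CXCL10 and CXCL11. Mesenchymal stromal cells are known to make IDO1 and these chemokines after interferon gamma. Several of these promoters also carry kappa B sites, which bind NF-kappa B, the family of RELA.

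Libraries held 19362319 to 29806771 counts. SRF mRNA was at 57.3 to 64.4 CPM in pMSCV, 678 to 1122 CPM in SRF and 151 to 337 CPM in the 12 fusion libraries. RELA, ICA1L and PDGFRB were highest in the group that carried each, at 234 to 268, 119 to 153 and 526 to 929.7 CPM against 88.96 to 95.6, 12.8 to 14.7 and 381 to 502 CPM in pMSCV. FOXO1 mRNA was at 7.35 to 14.4 CPM in the libraries labelled SRF-FOXO1 and 9.45 to 17.5 CPM in pMSCV, so it does not check that label. The 8 mesenchymal stromal markers, among them COL1A1 and THY1, all reached 1 CPM and summed to 16479 to 41991 CPM per library. Of 6 monocyte and macrophage markers, 1 (CSF1R) reached 1 CPM, the 6 summed to 4.94 to 6.93 CPM in SRF-PDGFRB and 3.37 to 6.68 CPM elsewhere, and TYROBP was at 0 throughout. None of the 6 T and NK cell markers reached 1 CPM, their sum was 0.069 to 0.139 CPM in SRF-PDGFRB and 0.044 to 0.451 CPM elsewhere, and CD3E and CD2 were at 0. All 4 endothelial markers reached 1 CPM in some library, and they summed to 7.16 to 31.4 CPM per library. Of 4 epithelial markers, 2 reached 1 CPM, with sums of 2.64 to 5.84 CPM. Of 4 B cell markers, 0 did, with sums of 0 to 0.209 CPM.

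In MSC-hTERT cells without added interferon, most members were transcribed already. Scaled per length, as RPKM (CPM divided by the exon length in kilobases) averaged over the 18 libraries, the highest levels were those of IFI6 at 79.3, STAT2 at 31.4, GBP2 at 29.8, IFI44 at 27.2 and ISG15 at 26.8 RPKM. The lowest of the tested members were XAF1 at 0.226, RSAD2 at 0.24, CXCL9 at 0.261 and APOL4 at 0.406 RPKM. Several of the members that differed most between groups were thus among those with the least RNA. The heat map of the 45 members shows each library beside the others of its group.

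**Figure D1:**
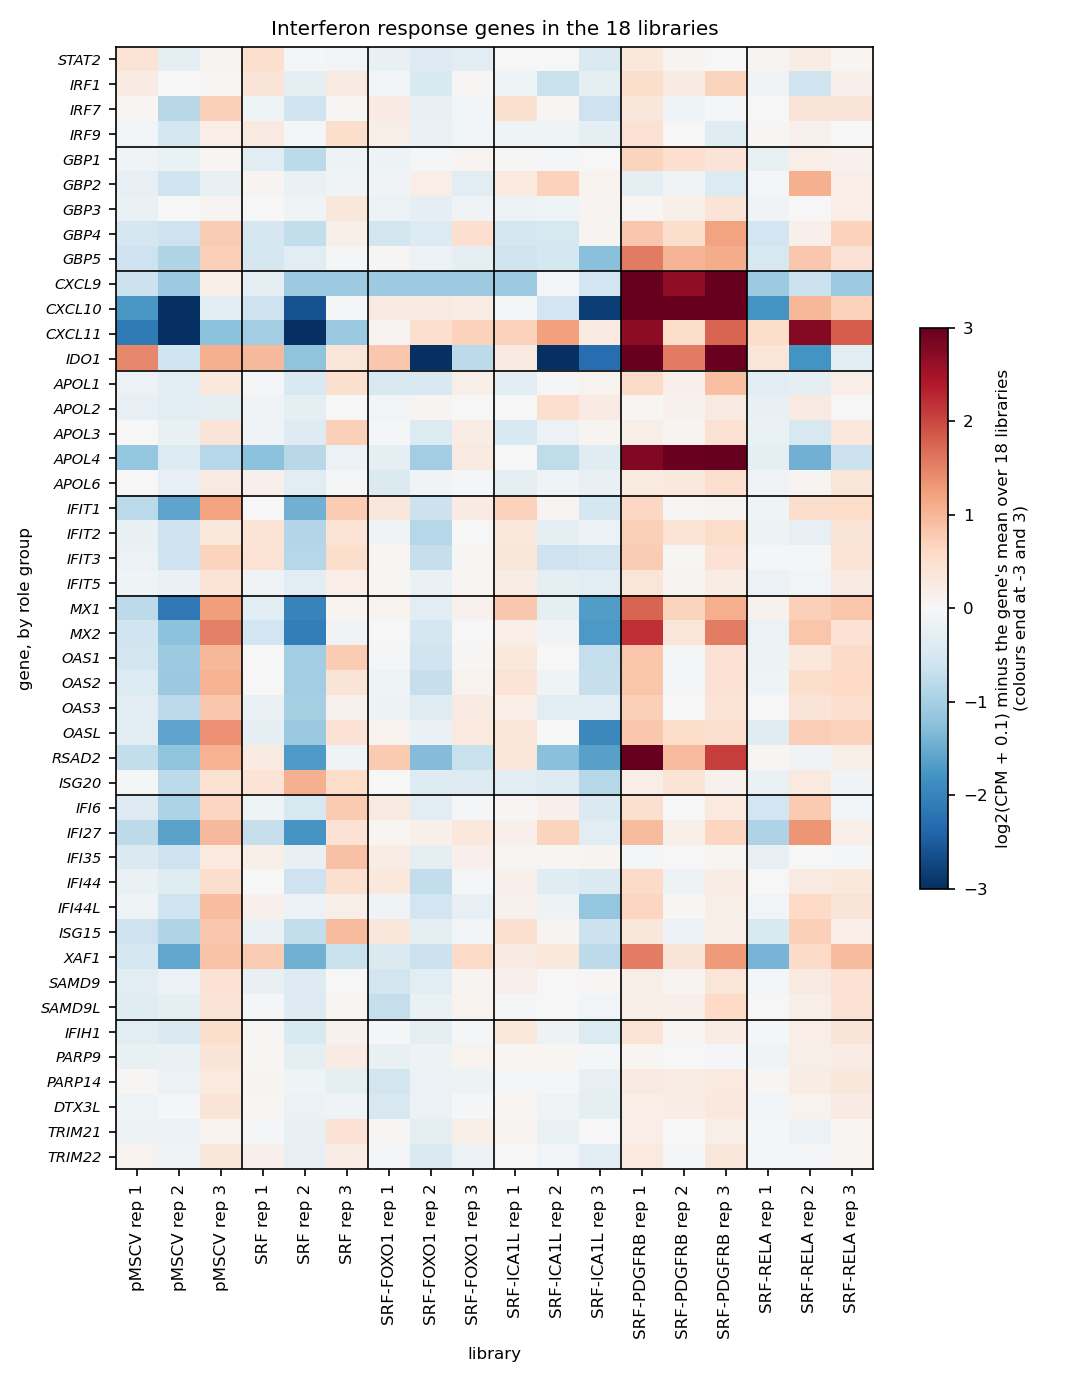
Level of each of the 45 tested members (rows, ordered by role) in each of the 18 libraries (columns, 3 per group), as log2(CPM + 0.1) minus that gene's mean over the 18 libraries; the colour scale is capped at -3 and 3. CXCL9, CXCL10, IDO1 and APOL4 are darkest red (highest) in the 3 SRF-PDGFRB columns, and the third pMSCV column is high across the IFIT, MX and OAS genes.

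Of the transcription factors of the pathway, IRF1 had its highest values in SRF-PDGFRB, and the others showed no group apart from all the rest. STAT2, the partner of IRF9 in the type I complex, was at 252, 158 and 201 CPM in pMSCV and 268, 184 and 179 in SRF (replicates 1, 2 and 3, in this order throughout). It was at 200.4, 221 and 196 CPM in SRF-RELA, 190.4, 186 and 139.8 in SRF-ICA1L, 161, 146 and 148 in the libraries labelled SRF-FOXO1, and 237, 201 and 189 in SRF-PDGFRB. The pMSCV libraries overlapped every other group, while each library labelled SRF-FOXO1 was below each SRF, SRF-PDGFRB and SRF-RELA library. IRF1, a direct target of interferon gamma that itself activates other members, was at 36.6, 31.03 and 31.2 CPM in pMSCV, 40.3, 25.1 and 37.2 in SRF, and 29.1, 22.5 and 31.5 in the libraries labelled SRF-FOXO1. In SRF-ICA1L it was at 28.2, 19.1 and 25.4, in SRF-RELA at 28.5, 20.2 and 33.8 and in SRF-PDGFRB at 44.01, 36.3 and 48.8 CPM. The 2 highest of all 18 IRF1 values were in SRF-PDGFRB, whose lowest value lay within the range of pMSCV. All 3 SRF-PDGFRB values of IRF1 were above all those of SRF-RELA, SRF-ICA1L and the libraries labelled SRF-FOXO1, and all 3 of SRF-ICA1L were below those of pMSCV. IRF7, which amplifies type I interferon production, ran from 9.46 to 27.9 CPM, and IRF9 from 3.7 to 7.78 CPM, with pMSCV alone covering 9.46 to 27.9 CPM of the former.

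The 3 chemokines that attract T and NK cells through the receptor CXCR3 were where the groups parted most. CXCL9 (ENSG00000138755, chr4:76001275-76007488, minus strand) had 1, 0 and 4 counts in pMSCV, 2, 0 and 0 in SRF, 0, 1 and 0 in SRF-RELA, 0, 3 and 1 in SRF-ICA1L and 0, 0 and 0 in the libraries labelled SRF-FOXO1. In SRF-PDGFRB it had 233, 36 and 60 counts, or 8.11, 1.24 and 3.1 CPM. CXCL9 was thus close to absent outside SRF-PDGFRB, and within that group replicate 1 held most of the counts. As a ratio of summed counts, scaled by library totals, SRF-PDGFRB was 68.5 times pMSCV, with a 95% exact interval of 29.1 to 212 that covers counting error only. The same ratio was 175 against SRF (47.9 to 1450), 83.1 against SRF-ICA1L (32.1 to 307) and 319 against SRF-RELA (56.9 to 12700). Against the libraries labelled SRF-FOXO1, whose 3 libraries had 0 counts, CXCL9 was at least 109-fold higher, taking 3 counts over that group as the floor. CXCL9 was selected on the SRF-PDGFRB libraries, so these ratios, intervals and the floor value are a description and no test. The intervals leave out the spread between libraries.

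CXCL10 (ENSG00000169245, chr4:76021117-76023497, minus strand) was at 0.637, 0.043 and 1.87 CPM in pMSCV, 1.52, 0.306 and 2.33 in SRF, and 2.92, 2.9 and 2.82 in the libraries labelled SRF-FOXO1. It was at 2.3, 1.56 and 0.25 in SRF-ICA1L, 0.622, 4.87 and 3.93 in SRF-RELA and 59.9, 29.9 and 40.9 CPM in SRF-PDGFRB. All 3 SRF-PDGFRB libraries lay far above the other 15, with a log2 fold change over pMSCV of 5.63. The highest of the other 15 was SRF-RELA replicate 2.

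CXCL11 (ENSG00000169248, chr4:76033682-76041415, minus strand) had another pattern than its neighbours, as the plot of the chemokines by library shows. It was at 1.56, 0.301 and 2.98 CPM in pMSCV and 3.41, 0.383 and 3.26 in SRF. It was at 11.6, 17.02 and 8.6 in SRF-ICA1L, 7.52, 10.2 and 11.6 in the libraries labelled SRF-FOXO1, 10.6, 48.9 and 25.5 in SRF-RELA and 46.7, 10.4 and 24.1 CPM in SRF-PDGFRB. Every one of the 12 fusion libraries was above every one of the 6 pMSCV and SRF libraries, and SRF-RELA and SRF-PDGFRB overlapped each other. This split into 12 and 6 was chosen after the values were seen. It holds for 15 of the 18544 tested genes (0.0809%), 1 of them a member, and the reverse order holds for 9 genes (0.0485%) and no member.

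The tests of CXCL11 depended on the tool, on the replicate block and on single libraries. Its log2 fold change over pMSCV came to 4.18 (SE 0.85) for SRF-RELA, 3.04 (SE 0.82) for SRF-ICA1L, 2.65 (SE 0.82) for the libraries labelled SRF-FOXO1 and 0.56 (SE 0.83) for SRF. The adjusted p-values of edgeR's quasi-likelihood test (Benjamini-Hochberg over 18544 genes) were 0.0792, 0.155, 0.153 and 0.962, so none passed 0.05. With the replicate number as a block, edgeR's adjusted p was 0.0463 for SRF-RELA, 0.069 for SRF-ICA1L and 0.0843 for the libraries labelled SRF-FOXO1. DESeq2 gave adjusted p-values of 0.000247, 0.0214 and 0.0496 for these 3 groups. In each of them CXCL11 was above pMSCV in 3 of 3 same-numbered pairs, as it was in SRF. Leaving out SRF-RELA replicate 1 gave an edgeR adjusted p of 0.0449, and leaving out replicate 2, the library with the most CXCL11, gave 0.417. Against SRF in place of pMSCV, SRF-RELA was higher by 3.62 (SE 0.82) on the log2 scale, with an edgeR adjusted p of 0.0967, 0.0547 with the block and 0.00281 by DESeq2.

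IDO1, the enzyme that starts tryptophan breakdown and a known brake on T cells, followed CXCL9 and CXCL10 in SRF-PDGFRB. It was at 5.06, 1.16 and 3.98 CPM in pMSCV, 3.63, 0.727 and 2.36 in SRF, and 3.25, 0.117 and 1.02 in the libraries labelled SRF-FOXO1. It was at 2.22, 0.104 and 0.292 in SRF-ICA1L, 2.35, 0.456 and 1.42 in SRF-RELA and 21.4, 5.56 and 14.9 CPM in SRF-PDGFRB. The 3 SRF-PDGFRB libraries were above the other 15, and replicate 2 was the lowest of its group in all 6 groups. Against pMSCV, the log2 fold change of IDO1 was -1.89 (SE 1.04) in SRF-ICA1L and -1.16 (SE 0.99) in the libraries labelled SRF-FOXO1, with edgeR adjusted p-values of 0.567 and 0.608. With the replicate block, IDO1 fell in both: the values were -2.12 (SE 0.42) with an adjusted p of 0.00892 in SRF-ICA1L and -1.41 (SE 0.39) with 0.042 in the libraries labelled SRF-FOXO1. IDO1 was above pMSCV in 0 of 3 same-numbered pairs in both groups, and the same held in SRF and in SRF-RELA.

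**Figure D2:**
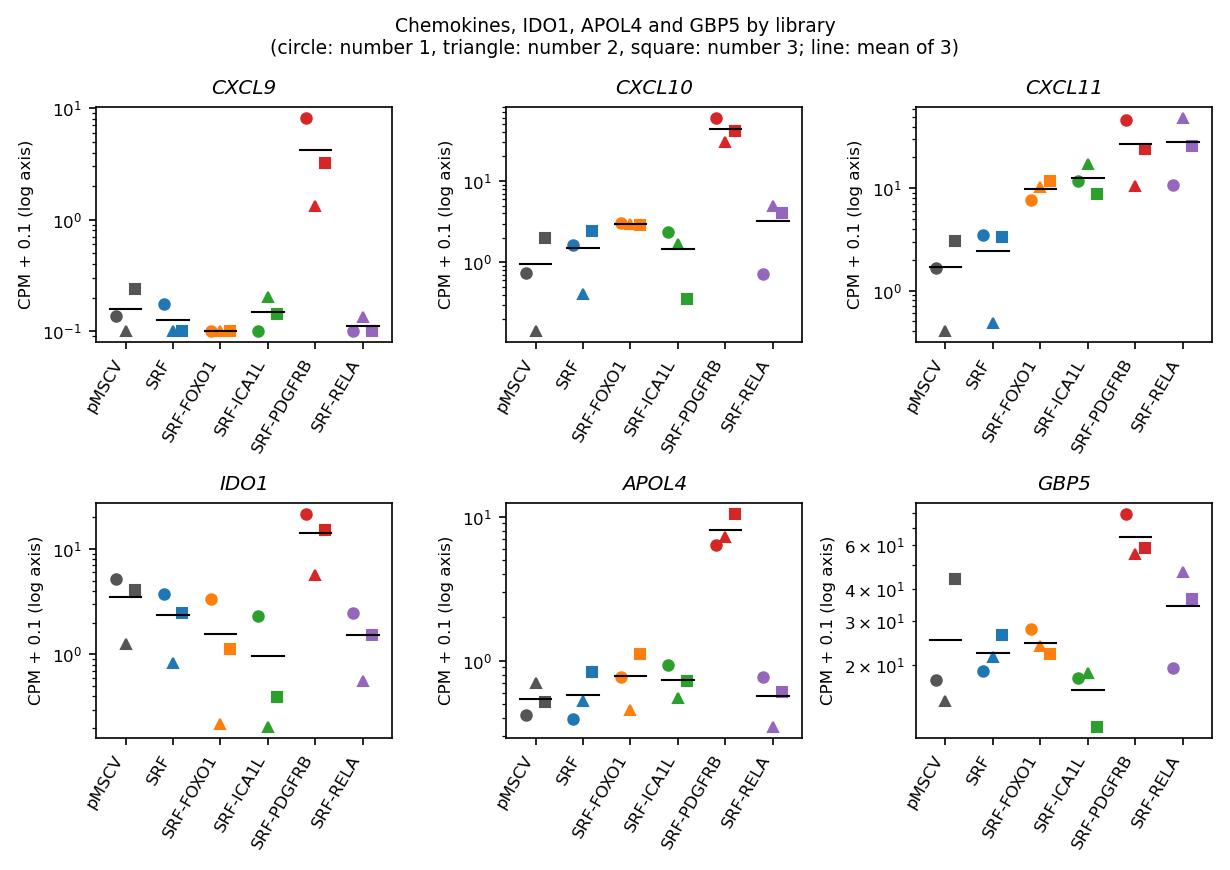
CPM of CXCL9, CXCL10, CXCL11, IDO1, APOL4 and GBP5 in each library by group, on a log axis as CPM + 0.1. Points are libraries, with a shape for each replicate number. The line is the mean of 3, and axes differ between panels. CXCL9 and CXCL10 stand out in SRF-PDGFRB alone, while CXCL11 is above all pMSCV and SRF libraries in all 12 fusion libraries.

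CXCL9, CXCL10 and CXCL11 lie next to each other on chromosome 4, within 40.1 kb (chr4:76001275-76041415, GRCh38), all on the minus strand. Their promoters are shown because the 3 neighbours differed in which constructs went with their RNA, beside IRF1 and IFIT1 as members with a GAS and with an ISRE. Each sequence is the 250 bases before the transcript start, 5′ to 3′ on the gene's strand, from RefSeq for GRCh38.p14: chr4:76007510-76007759, chr4:76023498-76023747, chr4:76036071-76036320 and chr5:132490774-132491023 on the minus strand, and chr10:89392373-89392622 on the plus strand. The starts are those of RefSeq, and that of CXCL11 lies inside the longer GENCODE 29 gene. Capitals mark the motif matches described next.
CXCL9: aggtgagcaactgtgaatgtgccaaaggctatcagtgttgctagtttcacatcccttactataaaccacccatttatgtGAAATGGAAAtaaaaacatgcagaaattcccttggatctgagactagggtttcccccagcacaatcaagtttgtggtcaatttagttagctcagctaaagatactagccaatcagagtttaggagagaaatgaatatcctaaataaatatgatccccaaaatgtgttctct
CXCL10: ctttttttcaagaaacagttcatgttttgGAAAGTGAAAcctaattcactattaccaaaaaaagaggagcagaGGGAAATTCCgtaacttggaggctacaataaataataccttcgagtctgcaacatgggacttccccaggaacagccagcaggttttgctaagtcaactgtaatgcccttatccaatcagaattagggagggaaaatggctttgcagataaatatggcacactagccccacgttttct
CXCL11: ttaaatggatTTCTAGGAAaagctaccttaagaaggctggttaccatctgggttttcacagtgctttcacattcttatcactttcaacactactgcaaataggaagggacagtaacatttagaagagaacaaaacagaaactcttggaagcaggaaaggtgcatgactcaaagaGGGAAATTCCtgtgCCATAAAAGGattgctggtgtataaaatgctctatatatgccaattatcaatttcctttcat
IRF1: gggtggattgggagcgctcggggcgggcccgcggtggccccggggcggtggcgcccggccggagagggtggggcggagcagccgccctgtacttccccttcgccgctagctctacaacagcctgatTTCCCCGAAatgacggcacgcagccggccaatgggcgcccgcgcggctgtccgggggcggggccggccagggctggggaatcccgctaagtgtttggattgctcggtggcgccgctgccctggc
IFIT1: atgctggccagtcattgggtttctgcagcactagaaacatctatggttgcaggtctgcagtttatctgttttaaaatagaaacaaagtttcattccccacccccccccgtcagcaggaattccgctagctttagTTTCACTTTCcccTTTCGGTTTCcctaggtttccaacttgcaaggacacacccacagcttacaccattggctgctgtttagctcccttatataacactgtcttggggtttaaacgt

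The motifs searched on both strands were the ISRE core GAAANNGAAA, the GAS core TTCNNNGAA, the kappa B core GGGANNTTCC and the CArG box, the site of SRF. An ISRE match stood at -171 to -162 from the CXCL9 start, at -221 to -212 in CXCL10, and, on the opposite strand, at -116 to -107 and -103 to -94 in IFIT1, with -1 as the base before the transcript. The IRF1 window held a GAS match at -124 to -116. A kappa B match stood at -177 to -168 in CXCL10 and at -76 to -67 in CXCL11, which had also a GAS match at -240 to -232 and a CArG box at -62 to -53. CXCL11 was thus the chemokine of the 3 with a CArG match in this window, and it had no ISRE match there. The matches in these 5 windows did not overlap each other.

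Windows of 300 bases, reaching 50 past the start, were at hand for 32 of the 46 members. A gene with more than 1 window was counted if any of them held the motif. An ISRE core was in 23 of the 32 (71.9%), against 4.38% of all 27305 genes with a window. A GAS core was in 9 (28.1%, against 9.38%), a kappa B core in 5 (15.6%, against 1.97%) and a CArG box in 3 (9.38%, against 1.6%). The 5 with a kappa B core were CXCL10, CXCL11, GBP4, OAS3 and IFIH1, and the 3 with a CArG box were CXCL11, GBP1 and ISG15. A match is a run of letters and no evidence of binding in these cells.

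The guanylate-binding proteins, large GTPases that attack vacuoles holding microbes, are encoded by 5 neighbouring genes on chromosome 1 (chr1:89006666-89272804). GBP1 was at 78.9, 74.2 and 87.7 CPM in pMSCV, 67.8, 48.8 and 75.8 in SRF, and 76.3, 80.7 and 89.4 in the libraries labelled SRF-FOXO1. It was at 86.5, 81.9 and 85.1 in SRF-ICA1L, 72.7, 96.4 and 91.9 in SRF-RELA and 134, 119.7 and 109.9 CPM in SRF-PDGFRB, where every library exceeded the other 15. GBP5, which promotes inflammasome assembly, was at 17.3, 14.4 and 43.8 CPM in pMSCV, 18.8, 21.5 and 26.3 in SRF, and 27.6, 23.7 and 22.2 in the libraries labelled SRF-FOXO1. It was at 17.7, 18.5 and 11.3 in SRF-ICA1L, 19.4, 46.9 and 36.4 in SRF-RELA and 79.7, 54.95 and 58.4 CPM in SRF-PDGFRB, again above the other 15. GBP2 had its high values elsewhere. It was at 152, 119 and 154 CPM in pMSCV, 190.1, 157 and 167 in SRF, and 168, 206 and 145 in the libraries labelled SRF-FOXO1, and at 219.6, 288 and 193 in SRF-ICA1L, 174, 375 and 206 in SRF-RELA and 148, 166 and 134 CPM in SRF-PDGFRB. All SRF, SRF-ICA1L and SRF-RELA libraries were above the 3 of pMSCV for GBP2, and the SRF-PDGFRB libraries overlapped pMSCV. The GBP2 log2 fold changes over pMSCV were 0.89 (SE 0.26) in SRF-RELA and 0.84 (SE 0.26) in SRF-ICA1L, with edgeR adjusted p-values of 0.415 and 0.219, or 0.145 and 0.0589 with the block. GBP4 ran from 44.2 to 71.1 CPM in SRF-PDGFRB and from 18.5 to 51.9 CPM elsewhere, and GBP3 from 30.7 to 49.5 CPM in all. Reads of such similar genes could have been split between them by the counting.

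Of the apolipoprotein L genes, whose founding member APOL1 encodes the trypanosome-lytic factor of human serum, APOL4 stood apart. It was at 0.319, 0.602 and 0.416 CPM in pMSCV, 0.297, 0.421 and 0.729 in SRF, and 0.671, 0.352 and 1.02 in the libraries labelled SRF-FOXO1. It was at 0.832, 0.452 and 0.626 in SRF-ICA1L, 0.666, 0.245 and 0.501 in SRF-RELA and 6.3, 7.14 and 10.4 CPM in SRF-PDGFRB. All 3 SRF-PDGFRB libraries were far above the other 15, with replicate 3 the highest, and the log2 fold change over pMSCV was 4.15. Its neighbours within 127 kb of chromosome 22 did not share that size of difference: over pMSCV the log2 fold changes in SRF-PDGFRB were 0.60 for APOL1, 0.42 for APOL2 and 0.16 for APOL3. APOL1 ranged from 12.6 to 32.6 CPM over the 18 libraries and APOL3 from 11.2 to 25.8 CPM. APOL2 was at 34.02, 32.5 and 33.1 CPM in pMSCV, 37.6, 32.9 and 40.2 in SRF, and 37.9, 42.9 and 40.1 in the libraries labelled SRF-FOXO1, and at 40.5, 56.96 and 48.1 in SRF-ICA1L, 34.4, 48.98 and 39.99 in SRF-RELA and 41.9, 43.8 and 48.4 CPM in SRF-PDGFRB. All libraries of SRF-ICA1L, SRF-RELA, SRF-PDGFRB and of those labelled SRF-FOXO1 were above the 3 of pMSCV. In SRF-ICA1L, the APOL2 log2 fold change over pMSCV was 0.66 (SE 0.15) with an edgeR adjusted p of 0.0761. With the replicate block, APOL2 rose in SRF-ICA1L, by 0.65 (SE 0.14) with an adjusted p of 0.0136. APOL6, the member of the family with the highest CPM, was at 40.3, 34.04 and 49.1 CPM in pMSCV, 45.2, 32.1 and 38.7 in SRF, and 29.8, 37.5 and 38.7 in the libraries labelled SRF-FOXO1. It was at 33.3, 37.1 and 34.8 in SRF-ICA1L, 37.5, 43.2 and 52.5 in SRF-RELA and 49.3, 50.4 and 57.6 CPM in SRF-PDGFRB. The SRF-PDGFRB values overlapped those of SRF-RELA and lay above those of the other 4 groups, by little over pMSCV replicate 3.

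The IFIT proteins bind foreign RNA ends and block their translation. IFIT3, which stabilises IFIT1, was at 39.3, 29.1 and 71.5 CPM in pMSCV, 59.7, 24.7 and 64.3 in SRF, and 46.2, 27.6 and 45.98 in the libraries labelled SRF-FOXO1. It was at 56.7, 29.2 and 30.01 in SRF-ICA1L, 42.7, 42.5 and 58.9 in SRF-RELA and 75.2, 45.4 and 59.9 CPM in SRF-PDGFRB. These groups overlapped throughout, and pMSCV alone spanned nearly the whole range. IFIT2 was at 13.1, 9.84 and 19.2 CPM in pMSCV, 20.2, 8.26 and 20.2 in SRF, and 14.3, 8.38 and 15.2 in the libraries labelled SRF-FOXO1, and at 19.1, 12.7 and 13.5 in SRF-ICA1L, 13.7, 12.9 and 20.01 in SRF-RELA and 25.1, 20.4 and 22.5 CPM in SRF-PDGFRB. Its 3 SRF-PDGFRB libraries were above the other 15, the lowest of them by a narrow margin over SRF. IFIT1 ranged from 10.5 to 72.9 CPM with both ends in pMSCV, and IFIT5 from 25.3 to 42.3 CPM.

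In the MX, OAS and RSAD2 group of antiviral effectors, the 3 pMSCV libraries were far apart from each other. OAS2, which makes the 2′-5′ oligoadenylates that activate RNase L, was at 46.8, 28.8 and 128 CPM in pMSCV, 62.8, 30.1 and 81.6 in SRF, and 56.4, 38.5 and 66.5 in the libraries labelled SRF-FOXO1. It was at 83.1, 57.1 and 38.2 in SRF-ICA1L, 56.9, 89.9 and 94.8 in SRF-RELA and 110.4, 60.6 and 83.5 CPM in SRF-PDGFRB. The lowest and the highest OAS2 values of the 18 libraries were both in pMSCV, in replicates 2 and 3. RSAD2, the antiviral protein viperin, was at 0.389, 0.258 and 1.59 CPM in pMSCV, 0.89, 0.153 and 0.66 in SRF, and 1.31, 0.235 and 0.416 in the libraries labelled SRF-FOXO1. It was at 0.95, 0.243 and 0.167 in SRF-ICA1L, 0.755, 0.666 and 0.836 in SRF-RELA and 6.55, 1.48 and 3.36 CPM in SRF-PDGFRB, where 1 library, replicate 2, was below pMSCV replicate 3. MX1 and MX2, dynamin-like GTPases that trap viral particles, ranged from 2.24 to 24.9 and 2.58 to 17.8 CPM in pMSCV, 16.5 to 34.6 and 7.96 to 28.4 CPM in SRF-PDGFRB and 2.49 to 18.3 and 1.38 to 10.97 CPM in the other 12 libraries. OAS1 ranged from 10.2 to 43.9, OAS3 from 29.3 to 103 and OASL from 0.417 to 4.99 CPM, and pMSCV replicate 3 was the highest library for each of these 3. ISG20, an exonuclease that degrades RNA, had another pattern, with 4.57, 2.67 and 6.44 CPM in pMSCV, 6.23, 9.87 and 6.91 in SRF, and 4.63, 3.56 and 3.56 in the libraries labelled SRF-FOXO1. It was at 3.68, 3.58 and 2.55 in SRF-ICA1L, 4.09, 5.82 and 4.39 in SRF-RELA and 5.43, 6.32 and 5.16 CPM in SRF-PDGFRB. All libraries of SRF-ICA1L, of SRF-RELA and of those labelled SRF-FOXO1 were below all 3 SRF libraries. In SRF-ICA1L against SRF, the log2 fold change was -1.14 (SE 0.28) with an edgeR adjusted p of 0.0752. With the replicate block, ISG20 fell in SRF-ICA1L against SRF, with the value -1.14 (SE 0.27) and an adjusted p of 0.0258.

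**Figure D3:**
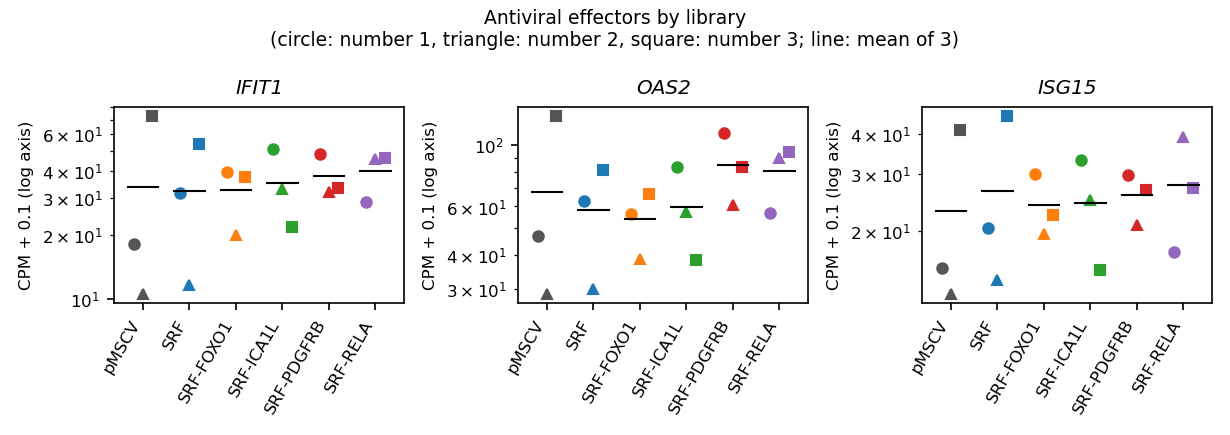
CPM of IFIT1, OAS2 and ISG15 in each library (points, with a shape for each replicate number) by group, on a log axis as CPM + 0.1; the line is the mean of 3. Replicate 3 of pMSCV is the highest of the 18 libraries for IFIT1 and OAS2, replicate 2 of pMSCV the lowest for all 3 genes, and the groups overlap.

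Among the other interferon-induced genes, XAF1, which counters an inhibitor of apoptosis, was at 0.814, 0.344 and 2.29 CPM in pMSCV, 2.11, 0.383 and 0.729 in SRF, and 0.872, 0.744 and 1.85 in the libraries labelled SRF-FOXO1. It was at 1.47, 1.53 and 0.668 in SRF-ICA1L, 0.4, 1.86 and 2.42 in SRF-RELA and 3.73, 1.61 and 3.1 CPM in SRF-PDGFRB, with overlap between pMSCV and every other group. SAMD9L, a cytoplasmic restriction factor of poxviruses, was at 82.3, 88.5 and 139 CPM in pMSCV, 104, 81.2 and 111 in SRF, and 64.1, 92.04 and 114 in the libraries labelled SRF-FOXO1. It was at 102, 106 and 99.6 in SRF-ICA1L, 107, 120.5 and 145 in SRF-RELA and 120.5, 117 and 159.7 CPM in SRF-PDGFRB. The SRF-PDGFRB values of SAMD9L overlapped those of pMSCV and SRF-RELA and were above those of the other 3 groups. Of the remaining members of this group, ISG15, the ubiquitin-like modifier, ranged from 12.6 to 45.4 CPM, IFI6 from 33.5 to 112, IFI27 from 2.26 to 20.3, IFI35 from 20.2 to 57.3, IFI44 from 31.98 to 79.7, IFI44L from 30.3 to 128 and SAMD9 from 65.9 to 129.9 CPM. None of them separated a group from the other 5.

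The RNA sensor, ADP-ribosylation and ubiquitin ligase genes differed little between groups. IFIH1, which encodes MDA5, a sensor of long double-stranded RNA, was at 19.3, 18.1 and 35.1 CPM in pMSCV, 24.9, 17.7 and 26.8 in SRF, and 23.9, 19.97 and 23.5 in the libraries labelled SRF-FOXO1. It was at 30.3, 21.9 and 18.3 in SRF-ICA1L, 23.4, 28.2 and 32.01 in SRF-RELA and 32.5, 25.2 and 28.8 CPM in SRF-PDGFRB, with the highest value in pMSCV. PARP14, a mono-ADP-ribosyltransferase, was at 149, 130.3 and 179.8 CPM in pMSCV, 155, 134 and 122 in SRF, and 100.4, 128 and 131 in the libraries labelled SRF-FOXO1. It was at 139, 142 and 124 in SRF-ICA1L, 148, 172 and 185 in SRF-RELA and 175, 169 and 178 CPM in SRF-PDGFRB. The SRF-PDGFRB libraries of PARP14 were close together and within the range of pMSCV and SRF-RELA. They were above every library of SRF, of SRF-ICA1L and of those labelled SRF-FOXO1. PARP9 and its partner DTX3L, a ubiquitin ligase, ranged from 58.7 to 94.4 and 75.4 to 137 CPM, and TRIM21, a cytosolic antibody receptor, and TRIM22 from 28.1 to 46.1 and 89.3 to 155 CPM.

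Described over the whole set, 43 of the 45 tested members had a positive log2 fold change in SRF-PDGFRB against pMSCV, with a median of 0.34, beside 0.00 for all 18544 genes. Leaving out pMSCV replicate 2 took this median to 0.12 with 35 positive, and leaving out replicate 1 to 0.22 with 40 positive. By role, the median was 4.83 for the 3 chemokines and IDO1, 0.59 for the guanylate-binding proteins, 0.42 for the apolipoprotein L genes, 0.36 for the MX, OAS and RSAD2 group, 0.27 for the IFIT genes, 0.20 for the other interferon-induced genes, 0.17 for the sensors and ligases and 0.11 for the 4 tested transcription factors. The 3 SRF-PDGFRB libraries were above the other 15 for 7 members, APOL4, CXCL10, CXCL9, GBP1, GBP5, IDO1 and IFIT2, where the same holds for 0.82% of all tested genes. No member set the 3 libraries of another group above the rest, as 0.14% of genes did for pMSCV, 0.588% for SRF, 0.0539% for SRF-RELA, 0.243% for SRF-ICA1L and 0.545% for the libraries labelled SRF-FOXO1. These values belong to the contrast that chose the members.

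Since the SRF-PDGFRB libraries chose members, the counts of calls in these 5 comparisons are no test of the set. The members that edgeR called there at an adjusted p under 0.05, all higher in SRF-PDGFRB, were CXCL9 and APOL4 against pMSCV (2 members, where 0.0324% of all genes were called), against the libraries labelled SRF-FOXO1 (0.717%) and against SRF-RELA (0.162%). GBP1 joined them against SRF (3 members, 0.146%), and GBP5 and CXCL10 against SRF-ICA1L (4 members, 0.82%). With the replicate block, 4 members were called against pMSCV (0.178% of genes), 7 against SRF (2.34%), 8 against the libraries labelled SRF-FOXO1 (4.32%), 8 against SRF-ICA1L (4.76%) and 4 against SRF-RELA (0.847%). CXCL9, IDO1 and APOL4 were among them in each of the 5. DESeq2 called 4 against pMSCV (0.108%), 7 against SRF (1.23%), 4 against the libraries labelled SRF-FOXO1 (2.56%), 7 against SRF-ICA1L (2.49%) and 3 against SRF-RELA (0.653%).

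**Figure D4:**
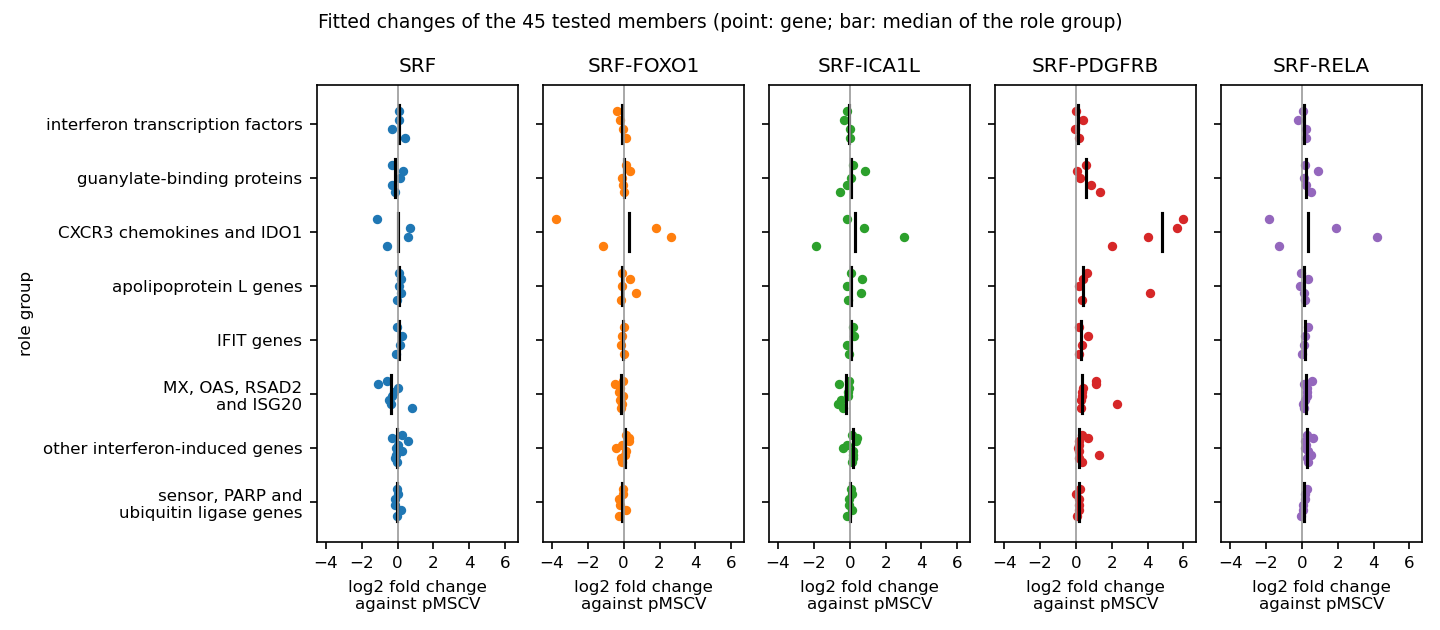
Log2 fold change of each tested member (points, by role group, with a bar at the group's median) against pMSCV in the 5 other groups, 1 panel per group, from edgeR; the vertical line marks no difference. CXCL11 lies to the right in all 4 fusion panels, CXCL9 and CXCL10 lie furthest right in the SRF-PDGFRB panel, and the fitted CXCL9 values elsewhere rest on 0 to 4 counts per library.

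Outside the SRF-PDGFRB comparisons, edgeR called no member. It called 0 of 45 in SRF against pMSCV (0.027% of all genes called, 2 members with an unadjusted p under 0.05), 0 in the libraries labelled SRF-FOXO1 against pMSCV (0.928%, 2 members), 0 in SRF-ICA1L against pMSCV (0.469%, 3 members) and 0 in SRF-RELA against pMSCV (0.183%, 4 members). Against SRF it called 0 in the libraries labelled SRF-FOXO1 (1.36%, 4 members under 0.05 unadjusted), 0 in SRF-ICA1L (0.782%, 5 members) and 0 in SRF-RELA (0.388%, 6 members). The percentages are shares of genes called at an adjusted p, so they are no background for the unadjusted counts. Against pMSCV, in the same order, 997, 2803, 2001 and 710 of the 18544 genes had an unadjusted p under 0.05. Against SRF, 2679, 2183 and 1769 genes did. These comparisons share the pMSCV or SRF libraries with the contrast that chose the members.

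The replicate block brought few calls. It called 0 members in SRF against pMSCV (0.243% of all genes), 1 in the libraries labelled SRF-FOXO1 against pMSCV (7.03%), IDO1, 2 in SRF-ICA1L against pMSCV (4.66%), IDO1 and APOL2, and 1 in SRF-RELA against pMSCV (0.971%), CXCL11. Against SRF it called 1 in SRF-ICA1L (4.73%), ISG20, 0 in SRF-RELA (1.73%) and 0 in the libraries labelled SRF-FOXO1 (7.23%), whose replicate 1 did not deviate together with that of SRF. DESeq2 called 0 members in SRF (0.194%), 1 in the libraries labelled SRF-FOXO1 (2.89%), CXCL11, 2 in SRF-ICA1L (1.76%), CXCL11 and APOL2, and 1 in SRF-RELA (0.701%), CXCL11, all against pMSCV. Against SRF it called 1 in the libraries labelled SRF-FOXO1 (3.88%) and 1 in SRF-ICA1L (2.41%), both ISG20, and 1 in SRF-RELA (1.15%), CXCL11. The share of the 45 members called was below that of all genes in the comparisons of the libraries labelled SRF-FOXO1 and of SRF-ICA1L, except SRF-ICA1L against pMSCV by DESeq2, and above it in those of SRF-RELA with 1 call. These shares rest on 0 to 2 members per comparison, so nothing about the members is read from them.

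The median log2 fold change of the 45 members against pMSCV was -0.03 in SRF, 0.19 in SRF-RELA, -0.02 in SRF-ICA1L and -0.07 in the libraries labelled SRF-FOXO1, with 21, 39, 22 and 15 of the 45 positive, and the median of all genes was 0.01, -0.01, -0.01 and 0.01. In SRF-RELA, 8 of 8 members of the MX, OAS and RSAD2 group, 9 of 9 other interferon-induced genes, 4 of 4 IFIT genes and 5 of 5 guanylate-binding proteins were positive, with group medians of 0.22, 0.31, 0.15 and 0.22. Without pMSCV replicate 2 these counts were 2 of 8, 7 of 9, 0 of 4 and 4 of 5, with medians of -0.12, 0.04, -0.11 and 0.14. In the libraries labelled SRF-FOXO1 and in SRF-ICA1L, none of the 8 members of the MX, OAS and RSAD2 group was positive. The block made 2 and 4 of them positive, and leaving out pMSCV replicate 3 made it 8 and 7, with medians of 0.72 and 0.67.

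These medians depended on single pMSCV libraries, which lay far apart. Replicate 3 had the highest CPM of the 18 libraries for 12 of the 45 members, as against 4.44% of all tested genes. The 12 were IFIT1, IFIT5, IFI44L, IRF7, OAS1, OAS2, OAS3, OASL, IFIH1, PARP9, DTX3L and TRIM22. SRF-PDGFRB replicate 1 was the highest for another 12 (5.78% of genes), with CXCL9, CXCL10, IDO1, MX1, MX2, RSAD2, GBP1 and GBP5 among them. At the other end, pMSCV replicate 2 was the lowest library for 15 members (2.34% of genes) and SRF replicate 2 for 10 (2.84%). Without pMSCV replicate 3, the median over the 45 members was 0.66 in SRF-PDGFRB, 0.52 in SRF-RELA, 0.41 in SRF-ICA1L, 0.32 in the libraries labelled SRF-FOXO1 and 0.30 in SRF, and 45, 42, 40, 36 and 42 members were positive. Without pMSCV replicate 2, the medians in the same order were 0.12, 0.0051, -0.22, -0.26 and -0.18, with 35, 23, 12, 8 and 12 positive. The shift of the set in SRF-RELA was thus near 0 without that library. The SRF-PDGFRB median of the MX, OAS and RSAD2 group was 0.36 with all libraries, 1.36 without pMSCV replicate 3 and 0.05 without pMSCV replicate 2. For the IFIT genes these values were 0.27, 0.88 and 0.09, and for the guanylate-binding proteins 0.59, 0.66 and 0.54. Without pMSCV replicate 3, the number of members with all 3 SRF-PDGFRB libraries on top went from 7 to 8, with RSAD2 added (1.09% of genes). The part of these libraries in the values was otherwise not tested.

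Many members were lower in the libraries numbered 2, although SRF-RELA replicate 2 was the highest of all 18 for 4 members, CXCL11, GBP2, IFI27 and IFI6. Of the 45 members, 40 had a lower fitted level in number 2 than in the mean of numbers 1 and 3, with a median log2 difference of -0.24, and edgeR with group and number in the model called 8 lower and 0 higher (5.38% of all genes were called lower and 7.32% higher). IDO1 ran from 0.104 to 5.56 CPM in the 6 libraries numbered 2, 2.22 to 21.4 CPM in those numbered 1 and 0.292 to 14.9 CPM in those numbered 3, a log2 difference of -2.10 (SE 0.27, adjusted p = 0.000209), with number 2 the lowest in 6 of 6 groups. RSAD2 had a difference of -1.41 (SE 0.39, adjusted p = 0.0303), with number 2 lowest in 5 of 6 groups. IFIT3 had -0.67 (SE 0.17, adjusted p = 0.022) and IFIT2 -0.56 (SE 0.14, adjusted p = 0.0182), with number 2 lowest in 6 of 6 groups for each. The other 4 were IRF1, at -0.39 (SE 0.07, adjusted p = 0.00389), APOL3, at -0.34 (SE 0.09, adjusted p = 0.0271), APOL1, at -0.30 (SE 0.09, adjusted p = 0.0436), and TRIM21, at -0.21 (SE 0.07, adjusted p = 0.0476). The labels do not say what a replicate number marks.

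Of 69 further genes of the pathway, 60 could be tested. Transcripts of the interferons themselves were scarce: IFNB1, IFNK, IFNG, IFNL1, IFNL2, IFNL3 and IFNA2 were below the count filter, and IFNG, IFNL1 and IFNL3 had 0 counts in all 18 libraries, each of which allows up to 0.101 to 0.155 CPM. The exception was IFNE, an interferon known from the reproductive tract, at 16.7 to 34.1 CPM, while IFNA1 was at 0.853 to 3.05 CPM. Both chains of the type I and of the type II receptor were among the tested genes, and none was called in any of the 12 comparisons by edgeR, without or with the block. Of the 13 kinases, STATs and brakes, CISH, a feedback inhibitor of STAT5 signalling, was called higher in each of the 5 SRF-PDGFRB comparisons. In these, 0.0324% to 0.82% of all genes were called. CISH was at 7.97, 11.2 and 10.1 CPM in SRF-PDGFRB and at 2.75 to 5.16 CPM in the other 15 libraries, which it did not overlap. The 3 SRF-PDGFRB libraries were above the other 15 for 0.82% of all tested genes. SOCS1, a feedback inhibitor that the interferon gamma pathway induces, was at 9.12, 13.9 and 21.02 CPM in SRF-PDGFRB and 2.94, 3.4 and 7.45 CPM in pMSCV. SOCS1 was called higher in the SRF-PDGFRB comparisons only with the block, where 0.178% to 4.76% of all genes were called. These lists were chosen with earlier results of these data known, so the calls of CISH and SOCS1 are no test. No other gene of the 60 was called without the block, and 0 of 60 in the 7 comparisons without SRF-PDGFRB.

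With the block, IL15, WARS1, IFI16 and IRF3 were called in some comparisons without SRF-PDGFRB. WARS1 was also called higher in SRF-PDGFRB against SRF (2.34% of all genes called). IL15 and IRF3 were called lower in SRF-PDGFRB against SRF-ICA1L (4.76%). These calls with SRF-PDGFRB are no test either. Against pMSCV, 2 of the 60 tested genes were called higher and 1 lower in the libraries labelled SRF-FOXO1 (7.03% of all genes called). In SRF-ICA1L against pMSCV, 2 of the 60 were called higher (4.66%). Against SRF, 1 was called higher and 1 lower in the libraries labelled SRF-FOXO1 (7.23%), and 1 higher in SRF-ICA1L (4.73%). IL15, a cytokine for NK cells, was higher against pMSCV in SRF-ICA1L, at 0.74 (SE 0.11) with an edgeR adjusted p of 0.00146, and in the libraries labelled SRF-FOXO1, at 0.55 (SE 0.11) with 0.00898. WARS1, a tRNA synthetase that interferon gamma induces, was higher in the libraries labelled SRF-FOXO1, at 0.47 (SE 0.13) with 0.0434, and IFI16, a DNA sensor, was lower there, at -0.43 (SE 0.12) with 0.0386. IRF3, the factor downstream of nucleic acid sensors, was higher in SRF-ICA1L, at 0.58 (SE 0.14) with 0.0286. Without the block, the adjusted p-values of these genes in the same comparisons were 0.0778, 0.151, 0.106, 0.47 and 0.0934.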

How the data were processed

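The deposited table holds raw counts of reads per Ensembl gene identifier in 18 libraries, made by the authors from stranded mRNA libraries. FastQC 0.11.8, Trimmomatic 0.39, HISAT2 2.12.1, featureCounts and Subread 2.0.3 with GRCh38 are named in the submitters' processing notes. Which annotation release was counted, and whether by strand, is not given in the sources used here, so reads of overlapping or similar genes could have been split.

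The members, role groups and context lists were chosen with earlier results of these data known. CPM values are counts divided by the library total, without scaling factors. RPKM values use union exon lengths of GENCODE 29. Gene coordinates are those of GENCODE 29 on GRCh38, and promoter windows come from RefSeq for GRCh38.p14.

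Tests used edgeR 4.0.16 in R 4.3.3. A filter (filterByExpr, minimum count 10) left 18544 genes, scaled by TMM. A robust quasi-likelihood model of 6 groups with 12 residual degrees of freedom was tested by two-sided F tests with Benjamini-Hochberg adjustment over these genes, and calls were made under 0.05. Totals of 19362319 to 29806771 counts set the precision: a count of 0 allows up to 3 counts, and intervals (95%) cover counting error only.

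Of 36 same-numbered pairs of libraries in the 12 comparisons, 35 had deviations from their group means that correlated over 0.1. The median of the 36 was 0.36. The 72 differently numbered pairs had a median of -0.18. Deviations cancel out within a group, so this negative value follows from the positive one and is no separate sign of pairing. The 2 libraries numbered 1 of SRF and labelled SRF-FOXO1 were at 0.0875. The pairing is thus read from the values, not the labels, and the blocked fit, with a term for each replicate number (10 residual degrees of freedom) is given where it changed a call. Named with every library's value were CXCL9, APOL4, members called without SRF-PDGFRB, the highest and the most changed member of each role group, and members with all SRF-PDGFRB libraries on top. The alternatives were the block, DESeq2 1.42.0, DESeq2 size factors, no filter, fits of 2 groups only and leaving out each library.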

Additional observations from a re-analysis of the deposited data

How the results depend on the processing

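No called result changed its direction under any alternative, while the medians of the 45 members in SRF, SRF-ICA1L and the libraries labelled SRF-FOXO1 against pMSCV became positive without pMSCV replicate 3. That in SRF was also positive without SRF replicate 2 (0.17), that in SRF-ICA1L with the block (0.08) and without SRF-ICA1L replicate 3 (0.10), and that in the libraries labelled SRF-FOXO1 without their replicate 2 (0.02). Without pMSCV replicate 2 the median in SRF-RELA went from 0.19 to 0.0051. The replicate block called 1 member in the libraries labelled SRF-FOXO1 against pMSCV, 2 in SRF-ICA1L against pMSCV, 1 in SRF-RELA against pMSCV and 1 in SRF-ICA1L against SRF, where the fit without it called 0. For SRF-PDGFRB the block called 4 members against pMSCV, 7 against SRF, 8 against the libraries labelled SRF-FOXO1, 8 against SRF-ICA1L and 4 against SRF-RELA. DESeq2 called 1, 2 and 1 in the libraries labelled SRF-FOXO1, SRF-ICA1L and SRF-RELA against pMSCV, and 1 in each of these against SRF. For SRF-PDGFRB, DESeq2 called 4 against pMSCV, 7 against SRF, 4 against the libraries labelled SRF-FOXO1 and 7 against SRF-ICA1L. Without the count filter, edgeR called 1 in SRF-PDGFRB against pMSCV, 2 against SRF-ICA1L, 1 in SRF-ICA1L against SRF, and 5 by replicate number 2. With only the compared groups in the fit, it called 1 in SRF-PDGFRB against pMSCV, 0 against SRF and 1 against SRF-RELA, with fewer residual degrees of freedom. Leaving out each library in turn gave 0 to 1 members in SRF-ICA1L against pMSCV (1 without SRF-ICA1L replicate 1) and 0 to 1 in SRF-RELA against pMSCV (1 without SRF-RELA replicate 1). It gave 1 to 2 in SRF-PDGFRB against pMSCV, with 2 only without SRF-PDGFRB replicate 2. It gave 1 to 2 against SRF, with 1 without SRF-PDGFRB replicate 1 and without SRF replicate 1 or 2. It gave 1 to 3 against SRF-ICA1L, with 1 without SRF-ICA1L replicate 3 and 2 without its replicate 2 or any SRF-PDGFRB library, and 1 to 2 against SRF-RELA, with 1 without any SRF-RELA library. The cause of these shifts was not tested. Depth limits CXCL9, XAF1, RSAD2 and APOL4, which had few counts in most libraries.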
